A study of Mus musculus with 9 samples.

Results

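The comparison set hindlimb skeletal muscle of mice at postnatal day (P) 7 against the point halfway between P2 and P14. For each gene, the mean of 3 P7 arrays was compared with the average of the P2 mean and the P14 mean, on the log2 scale. All 9 arrays of the study took part, 3 biological replicates at each age, and 22180 genes were measured, each by 1 probe set that names a single gene and is the brightest of that gene. The mice are labelled as of mixed strain and carry no labelled treatment or engineered allele, and the labels do not say if tissue of several animals was pooled. The p-values measure only the spread between these samples. The comparison leaves out the net change from P2 to P14 and picks up peaks and dips at P7, steps that came early (before P7) and steps that came late (after P7).

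In the first postnatal weeks the hindlimb muscle of a mouse passes from a fetal to a mature state. The embryonic and perinatal myosin heavy chains give way to the adult fast ones, fibres grow while proliferation ends, and the animals begin to move about and later to leave a milk diet. The imprinted Dlk1 to Dio3 region encodes long non-coding RNAs from the maternal chromosome, among them Meg3, Rian and Mirg, and these long transcripts hold a large cluster of microRNAs and small nucleolar RNAs. A microRNA pairs with messenger RNAs mainly through its seed, the bases near its 5′ end, and lowers their translation and stability.

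Few genes were called at P7 against the midpoint. At an adjusted p under 0.05, 43 of 22180 genes (0.194%) were called, 35 of them above the midpoint (0.158%) and 8 below it (0.0361%). At an unadjusted p under 0.05 there were 1801 genes, 780 above and 1021 below. For scale, 73 genes (0.329%) were called between P2 and P7 and 538 (2.43%) between P7 and P14, in comparisons that share the P7 arrays with this one. When 1 array was left out, the first count ran from 11 (without P7 replicate 3) to 206 (without P2 replicate 2). The second ran from 214 (without P14 replicate 2) to 794 (without P2 replicate 2). They were 41 and 1163 with 1 variance per age, and 3 and 199 with every probe set in the fit. Of the 43 genes, 33 were late falls, 6 late rises, 2 dips and 2 peaks, and none was an early rise or an early fall. At an unadjusted p under 0.05 there were 282 late falls, 540 late rises, 232 dips, 219 peaks, 279 early rises and 249 early falls. A peak or a dip has all 3 P7 arrays above or below the other 6, and the remaining shapes follow from the side of the midpoint and the direction from P2 to P14. Of the 33 late falls, 30 lie in the Dlk1 to Dio3 region.

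The number of calls depends on which probe sets share the fit. When every one of the 41345 probe sets of the table, named or not, entered the fit and the adjustment, a setting added after the data were seen, 1 gene was called, Myh8, and 0 genes of the Dlk1 to Dio3 region. The unnamed probe sets had a median residual SD of 0.346 against 0.238 for those with 1 symbol, and the prior that steadies each gene's variance fell from 8.32 to 3.59 degrees of freedom. With that prior and the adjustment over the 22180 genes alone, 3 genes were called. The count thus went from 43 to 3 with the prior changed alone, and to 1 when the adjustment also ran over every probe set. The differences themselves are the same in both fits. The size of a difference also depends on the scale. Against the midpoint of unlogged intensities, 1 of the 43 genes (Myh8) changed side, 30 moved by at least the largest of their 3 replicate SDs and 12 by less, and the 30 called genes of the Dlk1 to Dio3 region lay 0.43 to 1.19 above it on the log2 scale. In the gene-level fit the call count was 28 when P7 replicate 1 was left out, 18 when P7 replicate 2 was, 21 when P7 replicate 3 was and 23 when P14 replicate 2 was. Of the 43 genes, 13 were called in all 9 fits that left out 1 array.

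**Figure D1:**
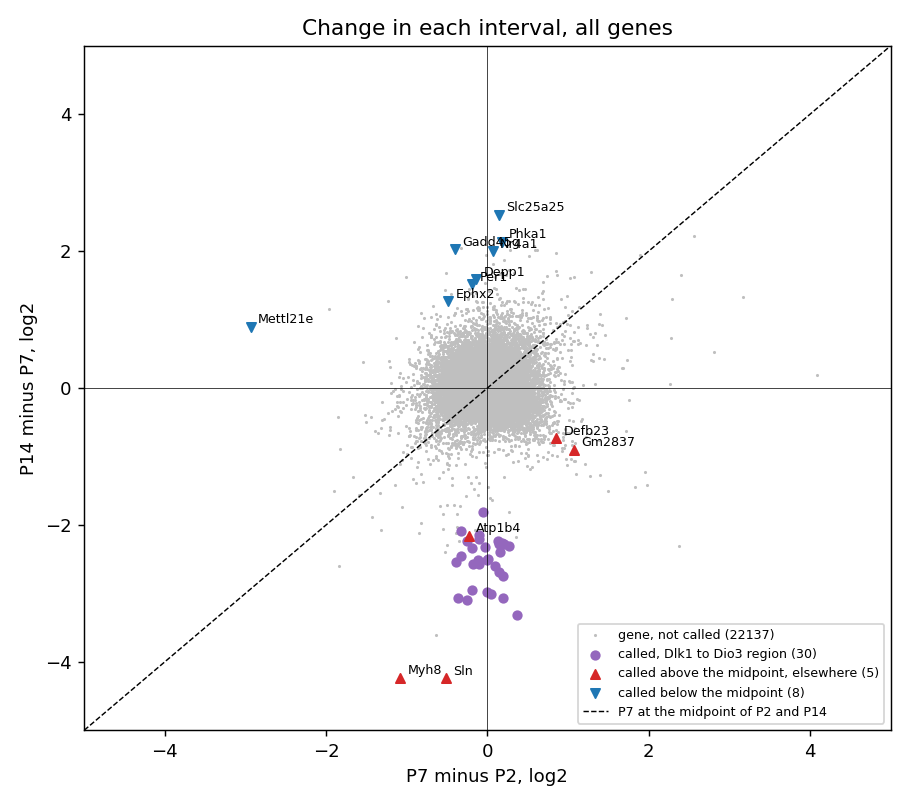
Change from P2 to P7 (horizontal, log2) against change from P7 to P14 (vertical, log2) for 22180 genes, with the 43 called genes coloured by group and the dashed line marking P7 at the midpoint. The called genes of the Dlk1 to Dio3 region lie near 0 on the horizontal axis and between -3.32 and -1.81 on the vertical one.

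MicroRNA genes of the Dlk1 to Dio3 region make up 27 of the 43 calls, and sequences of 4 with large differences and of those that share a seed are shown here. All 27 called microRNA genes had mature sequences in RefSeq (build GRCm38.p6, chromosome 12), 50 in all with 47 different seeds. Capitals mark the seed, bases 2 to 8. The first set belongs to 4 genes with some of the largest differences, and no other called gene holds the seeds shown. Mir300, Mir381 and Mir380 differed more than Mir329 and are not shown.
miR-495-3p (chr12:109718795-109718816, + strand): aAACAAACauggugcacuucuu
miR-376b-3p (chr12:109723508-109723528, + strand): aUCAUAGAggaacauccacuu
miR-323-3p (chr12:109712558-109712578, + strand): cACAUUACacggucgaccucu
miR-329-3p (chr12:109713541-109713562, + strand): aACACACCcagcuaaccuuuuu
A further 3 seeds were each held by 2 called genes, shown in pairs.
miR-379-5p (chr12:109709065-109709085, + strand): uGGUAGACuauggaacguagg
miR-1193-5p (chr12:109715716-109715735, + strand): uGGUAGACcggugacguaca
miR-1197-5p (chr12:109712361-109712381, + strand): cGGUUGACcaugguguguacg
miR-758-5p (chr12:109712823-109712843, + strand): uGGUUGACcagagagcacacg
miR-453 (chr12:109735669-109735692, + strand): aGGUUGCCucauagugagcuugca
miR-496a-5p (chr12:109739132-109739152, + strand): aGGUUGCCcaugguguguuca
These arrays were hybridised with cRNA made from total RNA, so a probe set of a microRNA gene can read the precursor or the long host transcript, and the mature microRNAs were not measured separately. Neighbouring microRNA genes share host transcripts and are not independent measurements.

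In the region, most of the measured genes fell from P7 to P14, and no gene was called from P2 to P7. RefSeq places 103 genes there and 55 were measured, of which 51 were above the level that the olfactory, vomeronasal and taste receptor genes seldom pass (3.42 on the log2 scale, the 95th percentile of 1447 such genes at their brightest age). Of the 55, 30 were called and all 30 lay above the midpoint, by 0.88 to 1.84. They comprised 27 of 43 microRNA genes, 2 of 6 small nucleolar RNA genes and Rian. The 42 microRNA genes above the receptor level had a median difference from the midpoint of 1.16, and it was above 0 in all 42. From P2 to P7 their median change was -0.18, and 0 of the region's 55 genes were called in that interval by limma (6 at an unadjusted p under 0.05). From P7 to P14 the median change of the 42 microRNA genes was -2.30, and 42 of 42 were called, or 41 with every probe set in the fit. The receptor level was applied at the brightest age, and 9 of these 42 had a P14 mean under it. Mir299a, a measured microRNA gene left out by that level, lay -0.07 from the midpoint and was not called from P7 to P14. Of 440 microRNA genes elsewhere, 122 were above the receptor level. Their median difference from the midpoint was 0.05, and 0 of the 122 were called by limma (19 at an unadjusted p under 0.05).

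**Figure D2:**
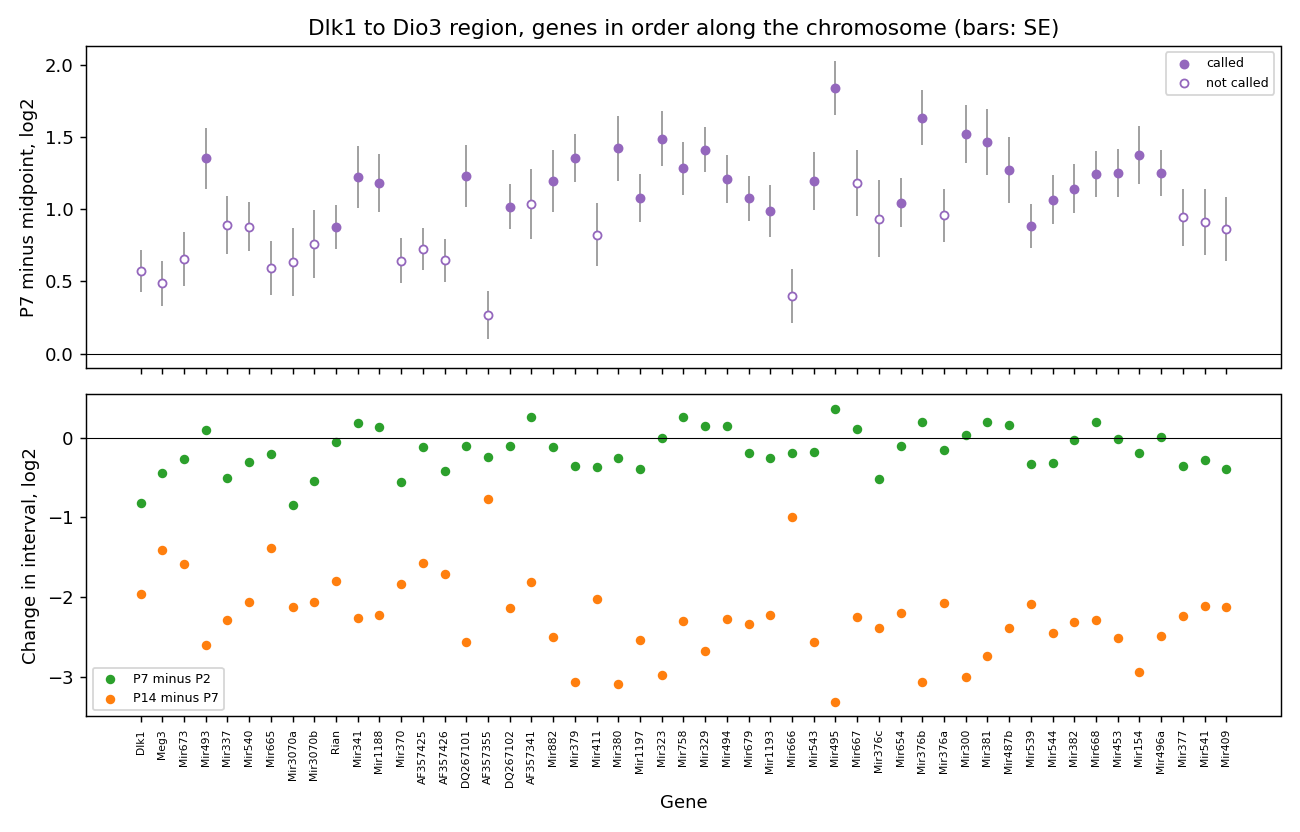
The 51 genes of the Dlk1 to Dio3 region above the receptor level, in chromosome order on the horizontal axis. The upper panel gives P7 minus the midpoint in log2 with its SE, filled where called, and the lower panel gives both intervals in log2. All 51 differences from the midpoint are above 0 (54 of the 55 measured genes), and the P14 minus P7 values of the 51 run from -3.32 to -0.77.

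Mir495 had the largest difference among the microRNA genes. Its log2 values were 5.60, 6.41 and 6.00 on the P2 arrays, 6.51, 6.32 and 6.28 on the P7 arrays and 3.29, 3.16 and 2.71 on the P14 arrays. Every P7 array was at least 6.28, inside the P2 range of 5.60 to 6.41 or just above it, and the P14 arrays stood apart below. The difference from the midpoint was 1.84 ± 0.19 (SE, n = 3 arrays per age; adjusted p = 0.00116), and P7 was 9.97 times P14. Its P14 mean of 3.05 was under the receptor level, near the background of the arrays.

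Mir329 was brighter. Its values were 9.22, 9.54 and 9.50 on the P2 arrays, 9.53, 9.36 and 9.79 on the P7 arrays and 7.01, 6.92 and 6.69 on the P14 arrays. The P2 and P7 arrays overlapped and all P14 arrays lay below them, with a difference from the midpoint of 1.41 ± 0.15 (SE, n = 3 arrays per age; adjusted p = 0.00178). The values of Mir376b were 7.01, 7.73 and 7.29 on the P2 arrays, 7.41, 7.48 and 7.73 on the P7 arrays and 4.82, 4.47 and 4.13 on the P14 arrays. It showed the same order, P2 and P7 together and P14 below, and lay 1.63 ± 0.19 (SE, n = 3 arrays per age; adjusted p = 0.0028) from the midpoint.

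A further 5 microRNA genes complete the 8 with the largest differences. Mir300 lay 1.52 above the midpoint (adjusted p = 0.00471), Mir323 1.49 (0.00471), Mir381 1.47 (0.0139), Mir380 1.42 (0.0139) and Mir154 1.38 (0.0081). Mir380 has a second probe set with a difference of 0.33, and with both averaged its adjusted p was 0.0743. Of the pairs that share a seed, Mir453 and Mir496a were 1.25 and 1.25 above the midpoint, Mir379 and Mir1193 1.35 and 0.99 above it, and Mir758 and Mir1197 1.29 and 1.08 above it. Of the 27 called microRNA genes, 10 were called in all 9 fits that left out 1 array. Mir1193 was called in 1 of those fits, and Mir341, Mir1188, Mir882, Mir487b and Mir539 in 2 each. The smallest adjusted p among the calls that just missed belonged to Oxct1, described later, and 2 genes of the same region, Mir667 (1.18) and Mir376a (0.96), all at 0.0558, and the last gene called was Mir1193 (0.0424).

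Rian, a long host RNA, had values of 10.19, 10.50 and 10.18 on the P2 arrays, 10.27, 10.25 and 10.19 on the P7 arrays and 8.72, 8.26 and 8.30 on the P14 arrays. Its P2 and P7 arrays overlapped and its P14 arrays were lower, and it was 0.88 ± 0.15 (SE, n = 3 arrays per age; adjusted p = 0.0321) above the midpoint. Meg3, another long non-coding RNA of the maternal chromosome, was 0.49 ± 0.16 (SE, n = 3 arrays per age; adjusted p = 0.359) from the midpoint. Dlk1, a membrane protein of the Notch ligand type that is expressed from the paternal chromosome, was 0.57 ± 0.15 (SE, n = 3 arrays per age; adjusted p = 0.203) from it. Meg3 and Dlk1 were therefore not called against the midpoint. The change of Meg3 was -0.44 ± 0.18 (SE) from P2 to P7, not called, and -1.41 ± 0.18 (SE) from P7 to P14, called by limma. The change of Dlk1 was -0.82 ± 0.17 (SE) from P2 to P7 and -1.97 ± 0.17 (SE) from P7 to P14. Only the second was called by limma, and the first just missed (adjusted p = 0.0522). Against the midpoint of unlogged intensities Dlk1 was at -0.017.

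P7 was not placed on a straight line in time by this contrast, since P7 comes 5 days after P2 and 7 days before P14, at 41.7% of the span. Against the point on a straight line in days, 15 genes were called, 11 of them in the Dlk1 to Dio3 region. Xist, the RNA of the inactive X chromosome, was high on 1 P2, 2 P7 and 1 P14 array, and a fit that held Xist constant called 24 genes, 17 of them in the region. The part of sex in these values was not tested.

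Outside the region, 3 muscle genes were late falls: Myh8, Sln and Atp1b4. Myh8, the perinatal myosin heavy chain, had values of 10.88, 10.89 and 10.68 on the P2 arrays, 9.79, 9.67 and 9.76 on the P7 arrays and 5.50, 5.56 and 5.44 on the P14 arrays. The 3 ages did not overlap. The change was -1.08 ± 0.16 (SE) from P2 to P7 and -4.24 ± 0.16 (SE) from P7 to P14, and both were called. It lay 1.58 ± 0.14 (SE, n = 3 arrays per age; adjusted p = 0.00023) above the midpoint on the log2 scale. Against the midpoint of unlogged intensities the log2 difference was -0.11, so its side of the midpoint depends on the scale. Its second probe set had a difference of 0.50 and the mean of both had 1.04 (adjusted p = 0.0252).

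Sln encodes sarcolipin, a small membrane protein that inhibits the calcium pump of the sarcoplasmic reticulum. Its values were 9.61, 10.47 and 10.30 on the P2 arrays, 9.39, 9.60 and 9.84 on the P7 arrays and 4.98, 4.79 and 6.35 on the P14 arrays. The P2 and P7 arrays overlapped and the P14 arrays were far below, with replicate 3 the highest of them. The difference from the midpoint was 1.86 ± 0.29 (SE, n = 3 arrays per age; adjusted p = 0.0139), and the change from P7 to P14 was -4.24 ± 0.34 (SE), or 18.9-fold lower. Atp1b4, a muscle protein related to the beta subunits of the sodium pump, had values of 10.02, 10.10 and 10.16 on the P2 arrays, 9.94, 9.91 and 9.74 on the P7 arrays and 7.60, 7.79 and 7.72 on the P14 arrays. All P14 arrays were lower than all others, and it lay 0.96 ± 0.14 (SE, n = 3 arrays per age; adjusted p = 0.00796) above the midpoint.

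The myosin heavy chains other than Myh8 were not called. Myh3, the embryonic form, lay near the midpoint at -0.20 ± 0.28 (SE, n = 3 arrays per age; adjusted p = 0.909), having fallen in both intervals. The adult fast forms Myh4, Myh1 and Myh2 and the calcium buffer Pvalb rose from P2 to P7 (each called in that interval, where limma called 73 genes, or 3 with every probe set in the fit, none of these 4 among them), with a large spread between the P2 arrays. Myh4, the IIb form, had values of 5.33, 8.85 and 10.26 on the P2 arrays, 12.31, 12.15 and 12.24 on the P7 arrays and 12.40, 12.45 and 12.42 on the P14 arrays. One P2 array was at 5.33 and another at 10.26, and the difference of 1.94 ± 0.68 (SE, n = 3 arrays per age; adjusted p = 0.443) was not called. Myh1, the IIx form, lay 1.14 ± 0.36 (SE, n = 3 arrays per age; adjusted p = 0.346) from the midpoint, with P2 arrays of 5.19, 6.64 and 7.71. Myh2, the IIa form, lay 0.50 above it (adjusted p = 0.788), and Myh7, the slow form, -0.13 from it (0.94). Pvalb, the calcium buffer of fast fibres, lay 0.92 ± 0.35 (SE, n = 3 arrays per age; adjusted p = 0.511) above it. Against the midpoint of unlogged intensities Myh2 was at -0.41 and Pvalb at -0.39, both below it. In the list of 15 adult fast sarcomere genes the median difference was 0.15, beside -0.02 over all genes, 0 were called, and 4 were above the midpoint at an unadjusted p under 0.05 (beside 2.76% of genes above the receptor level).

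**Figure D3:**
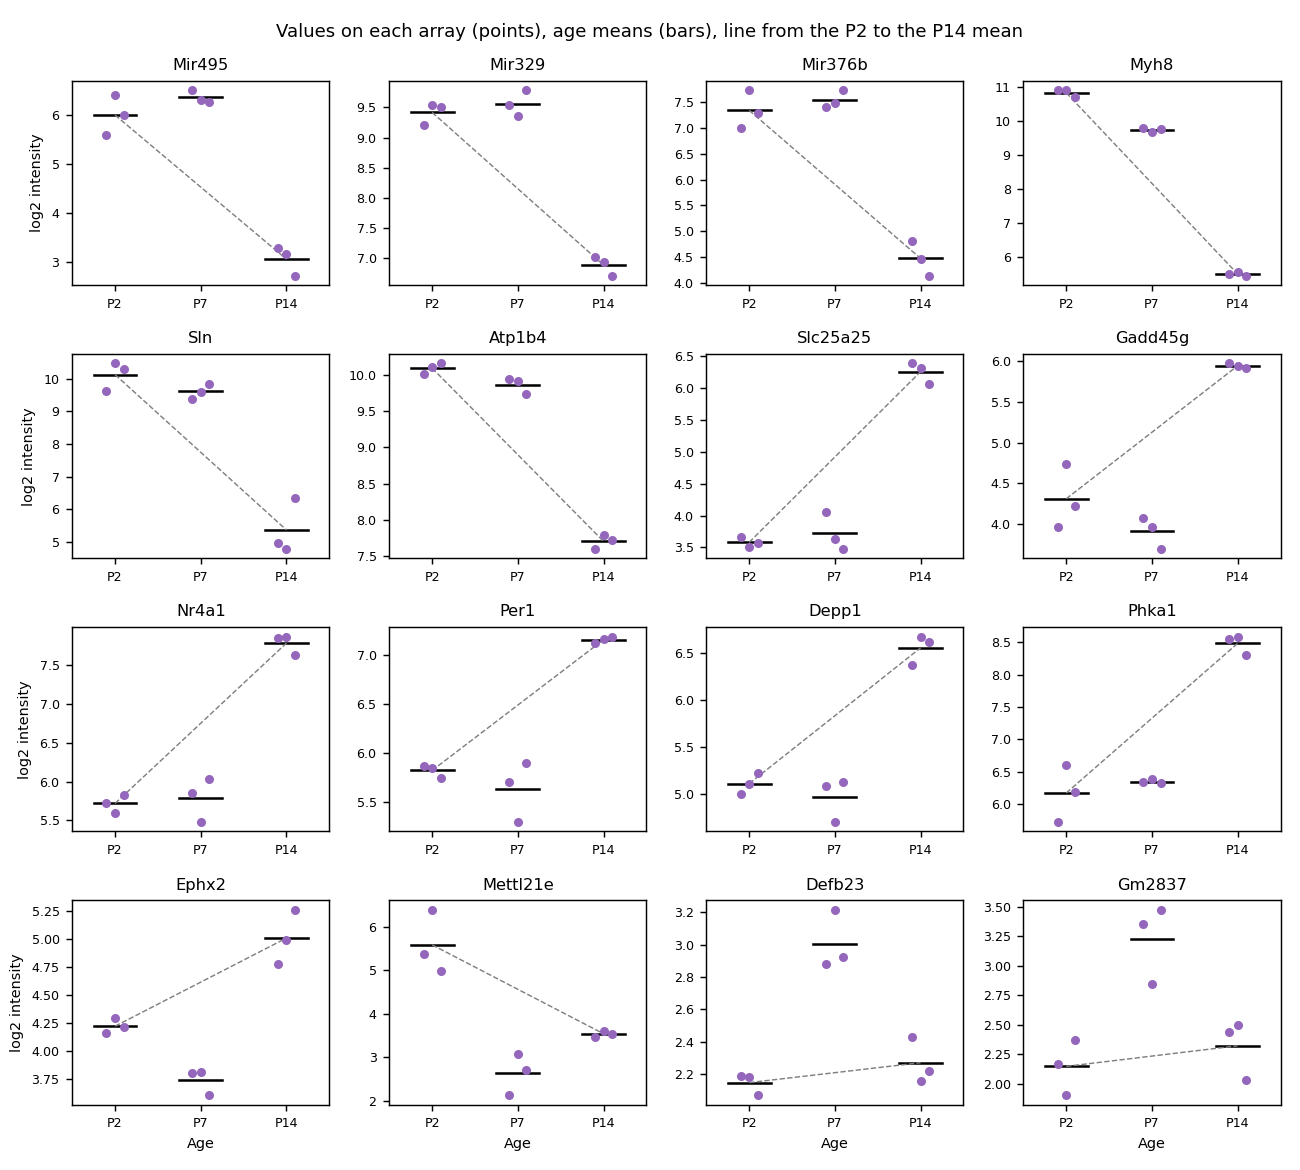
Log2 intensity of 16 called genes on each array (points), with the age means (bars) and a dashed line from the P2 mean to the P14 mean. In the late falls and late rises the P7 points lie nearer to the P2 points than to the P14 points. All P7 points of Myh8 and Atp1b4 lie below their P2 points. In the dips and peaks the P7 points lie outside both other ages.

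There were 6 late rises, low at P2 and P7 and higher at P14. Slc25a25, a calcium-regulated carrier of ATP and phosphate in the inner mitochondrial membrane, had values of 3.67, 3.50 and 3.57 on the P2 arrays, 4.05, 3.64 and 3.48 on the P7 arrays and 6.38, 6.32 and 6.06 on the P14 arrays. The P2 and P7 arrays overlapped and P14 was 5.8 times P7. It lay -1.20 ± 0.16 (SE, n = 3 arrays per age; adjusted p = 0.00498) from the midpoint and was called in all 9 fits that left out 1 array. Gadd45g, a growth arrest gene that responds to stress, had values of 3.96, 4.74 and 4.23 on the P2 arrays, 4.07, 3.97 and 3.69 on the P7 arrays and 5.97, 5.94 and 5.91 on the P14 arrays. P7 overlapped P2 and all P14 arrays were higher, and its difference was -1.22 ± 0.17 (SE, n = 3 arrays per age; adjusted p = 0.008).

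Nr4a1, an immediate early nuclear receptor that is induced by activity in muscle, had values of 5.73, 5.60 and 5.83 on the P2 arrays, 5.86, 5.48 and 6.03 on the P7 arrays and 7.86, 7.87 and 7.63 on the P14 arrays. The difference was -0.97 ± 0.16 (SE, n = 3 arrays per age; adjusted p = 0.0176), with P14 at 4 times P7. Per1, a clock repressor that glucocorticoids also induce, had values of 5.87, 5.85 and 5.75 on the P2 arrays, 5.71, 5.30 and 5.91 on the P7 arrays and 7.12, 7.16 and 7.19 on the P14 arrays. It lay -0.85 ± 0.15 (SE, n = 3 arrays per age; adjusted p = 0.0394) from the midpoint, and in none of the 9 fits without 1 array was it called. Depp1, a gene induced in fasting and by FoxO factors, lay -0.87 ± 0.15 (SE, n = 3 arrays per age; adjusted p = 0.033) from the midpoint. Phka1, the muscle form of the alpha subunit of phosphorylase kinase, which starts glycogen breakdown, had values of 5.72, 6.60 and 6.19 on the P2 arrays, 6.33, 6.38 and 6.32 on the P7 arrays and 8.55, 8.59 and 8.31 on the P14 arrays. Its P7 arrays lay inside the P2 range, and it was -0.98 ± 0.18 (SE, n = 3 arrays per age; adjusted p = 0.042) from the midpoint. Of the 9 fits that left out 1 array, Gadd45g was called in 7, Nr4a1 in 6, Phka1 in 2 and Depp1 in 1, beside 7 for Atp1b4, 6 for Sln and 2 for Rian among the late falls.

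Among the genes that rise late, 1 of 6 carried the full cyclic AMP response element and another 2 only its shorter form in their promoter windows (250 bases before to 50 after each start, RefSeq GRCm38.p6, both strands). The full element TGACGTCA was found in 1 of 3 windows of Slc25a25, and the shorter TGACG in Nr4a1 (4 times), in both windows of Per1 and in the full element of Slc25a25. Of the 27025 genes with a window, 2.03% hold the full element and 23.0% the shorter one, which the full one includes. Outside the late rises, 1 of 2 windows of Meg3 held the full element and the window of Dlk1 the shorter one. Neither was found in Gadd45g, Depp1 or Phka1. The glucocorticoid response element was found in none of the 6, and in 0.0111% of those 27025 genes. These matches describe letters and were not tested for binding. Upstream stretches are shown for the 3 late rises that hold an element, while Gadd45g, Depp1 and Phka1 rose late without one in these windows. Capitals mark the element on either strand.
Slc25a25 (chr2:32424182-32424261, - strand): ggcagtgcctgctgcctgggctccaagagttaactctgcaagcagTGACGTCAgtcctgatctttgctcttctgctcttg
Nr4a1 (chr15:101266761-101266840, + strand): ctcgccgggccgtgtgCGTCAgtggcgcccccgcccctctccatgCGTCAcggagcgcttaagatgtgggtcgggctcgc
Per1 (chr11:69098699-69098778, + strand): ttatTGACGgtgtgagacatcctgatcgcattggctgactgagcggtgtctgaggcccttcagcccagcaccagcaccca

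There were 2 dips. Ephx2, soluble epoxide hydrolase, had values of 4.16, 4.29 and 4.21 on the P2 arrays, 3.80, 3.81 and 3.60 on the P7 arrays and 4.77, 4.99 and 5.26 on the P14 arrays. All 3 P7 arrays were below the other 6, and the difference was -0.88 ± 0.15 (SE, n = 3 arrays per age; adjusted p = 0.0263). Only its change from P7 to P14, 1.27 ± 0.17 (SE), was called. Mettl21e, a lysine methyltransferase of muscle, had values of 5.38, 6.39 and 4.98 on the P2 arrays, 2.13, 3.08 and 2.72 on the P7 arrays and 3.48, 3.61 and 3.54 on the P14 arrays. It was high only at P2, and its change from P2 to P7 was -2.94 ± 0.31 (SE), the side that was called. The rise from P7 to P14, 0.90 ± 0.31 (SE), was not called. Mettl21e was called in 9 of the 9 fits that left out 1 array and Ephx2 in 3. Mettl21e lay -1.92 ± 0.26 (SE, n = 3 arrays per age; adjusted p = 0.00637) from the midpoint, and its P7 mean of 2.64 was under the receptor level.

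Peaks with both sides called were found in 2 genes (0.00902%) and dips with both sides called in 0, by limma. At an unadjusted p under 0.05 on both sides there were 175 peaks and 145 dips, 68 and 120 of them above the receptor level. Defb23, a beta defensin, had values of 2.19, 2.18 and 2.07 on the P2 arrays, 2.88, 3.21 and 2.92 on the P7 arrays and 2.43, 2.16 and 2.22 on the P14 arrays. Gm2837 is a predicted gene and had values of 2.17, 1.90 and 2.37 on the P2 arrays, 3.36, 2.84 and 3.47 on the P7 arrays and 2.44, 2.49 and 2.03 on the P14 arrays. All 3 P7 arrays of both lay above the other 6. Defb23 was 0.80 ± 0.14 (SE, n = 3 arrays per age; adjusted p = 0.0394) and Gm2837 0.99 ± 0.18 (SE, n = 3 arrays per age; adjusted p = 0.0421) above the midpoint. Both genes were under the receptor level at every age, and neither held its call in more than 1 of the 9 fits without 1 array.

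Some brighter peaks and dips that were not called were picked by smallest p after their values were seen. Tet2, an enzyme that oxidises methylated cytosine, had values of 7.08, 7.15 and 7.02 on the P2 arrays, 7.37, 7.51 and 7.84 on the P7 arrays and 6.18, 6.49 and 6.65 on the P14 arrays. Its P7 arrays were the highest, and the difference was 0.81 ± 0.16 (SE, n = 3 arrays per age; adjusted p = 0.0613). Oxct1, which starts the use of ketone bodies in mitochondria, had values of 5.75, 5.67 and 6.29 on the P2 arrays, 5.28, 5.33 and 5.18 on the P7 arrays and 6.24, 6.26 and 6.51 on the P14 arrays. Its P7 arrays were the lowest, with a difference of -0.86 ± 0.16 (SE, n = 3 arrays per age; adjusted p = 0.0558). Mettl21c, a muscle lysine methyltransferase, lay 1.03 ± 0.24 (SE, n = 3 arrays per age; adjusted p = 0.143) above the midpoint. The peaks Clstn3 (0.58, adjusted p = 0.159), Flrt1 (0.58, 0.197), Zfp60 (0.54, 0.197) and Nkx2-5 (0.54, 0.263) also lay above it. The dips Ppp1r35 (-0.69, adjusted p = 0.0607), Napb (-0.76, 0.11) and Cmc2 (-0.70, 0.11) also lay below the midpoint. None of these passed the threshold.

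No gene classed as an early rise or early fall was called. Mettl21e, classed as a dip, had only its fall from P2 to P7 called. The early rises with the smallest p were Vmn1r129 (1.70, adjusted p = 0.0799), A930003A15Rik (1.11, 0.142) and Gm5476 (0.66, 0.167). Vmn1r129, a vomeronasal receptor gene, had means of 2.89, 4.87 and 3.45 at P2, P7 and P14, so its mean was highest at P7. It was not classed as a peak because P14 replicate 3 (4.16) lay above P7 replicate 1 (4.14). The early falls were Lepr, the leptin receptor (-0.57, 0.197), Nbn, a DNA repair gene (-0.61, 0.203), and Wdr44 (-0.60, 0.285). Lepr had values of 4.51, 4.48 and 4.20 on the P2 arrays, 3.17, 3.32 and 3.26 on the P7 arrays and 3.35, 3.18 and 3.19 on the P14 arrays, so its P7 and P14 arrays overlapped below P2.

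Several gene lists lay below the midpoint, with few of their members called. Genes above the receptor level leaned the same way, with 62.2% below the midpoint, and at an unadjusted p under 0.05 890 of 13266 (6.71%) were below and 366 (2.76%) above. The list counts that follow are read against these shares. The 17 glucocorticoid target genes had a median of -0.35, beside -0.06 over the 13266 genes above the receptor level. Per1 was called, and 7 of 17 were below the midpoint at an unadjusted p under 0.05, among them Klf15, a regulator of amino acid and lipid use (-0.63), and Zbtb16 (-0.54). The 27 genes of fatty acid uptake and oxidation had a median of -0.24, 0 were called and 7 were lower at an unadjusted p under 0.05, namely Oxct1, Acadvl (-0.57), Cpt2 (-0.51), Slc25a20 (-0.55), Acadl (-0.49), Acadm (-0.51) and Acaa2 (-0.41). Acadm, the medium-chain dehydrogenase, had means of 8.75, 8.25 and 8.76 at P2, P7 and P14.

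The 25 genes of glycolysis and glycogen had a median of -0.15. Phka1 was the 1 called, and at an unadjusted p under 0.05 there were 7 below and 1 above the midpoint. Hk2, the muscle hexokinase that traps glucose, lay -0.91 from the midpoint (adjusted p = 0.0607). Fbp2, an enzyme of glycogen synthesis from lactate, was the 1 above (0.39). The 23 immediate early genes had a median of -0.13, with Nr4a1 called and 4 below at an unadjusted p under 0.05, Dusp1 (-0.63) and Nr4a3 (-0.54) among them. The 17 circadian genes did not lie below the midpoint as a list, with a median of 0.0012. At an unadjusted p under 0.05, 2 were below and 1 above. Per1, also in the glucocorticoid list, was called, and Nr1d1 (0.34, adjusted p = 0.651) and Dbp (-0.13, 0.883) were not. Ages were not labelled with a time of day, so clock phase and age cannot be told apart.

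Muscle growth lists lay nearer the midpoint. The 30 mitosis genes had a median of 0.06, 0 were called and 1 was lower at an unadjusted p under 0.05, and Mki67 lay 0.35 above it (adjusted p = 0.673). The 19 myogenic regulators had a median of 0.00 to 2 decimals, with 0 called and Myf5 (-0.64) lower at an unadjusted p under 0.05. Pax7 (0.07), Myog (0.06) and Mymk, the fusion protein myomaker (-3.3e-05), were not called (adjusted p = 0.967, 0.959 and 1). Igf2, an imprinted growth factor of another region, lay 0.35 above the midpoint (adjusted p = 0.559). The 53 oxidative phosphorylation genes had a median of -0.08, with 0 called and 3 lower at an unadjusted p under 0.05.

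The arrays and their cell makeup set limits to these values. Array medians ran from 3.60 to 3.69 and pairs of replicates correlated at 0.953 to 0.984, and P2 replicate 2 stood apart from the other P2 arrays on the second principal component. All 13 defining muscle fibre genes were above the receptor level. In 13 lists of markers of other cell types, 0 of 179 genes were called by limma, with 7 above and 12 below the midpoint at an unadjusted p under 0.05. The tendon list lay below the midpoint, on the side of the late rises. Its 10 genes had a median of -0.27 and Angptl7, a tendon and matrix factor, lay -1.19 from the midpoint (adjusted p = 0.123). Their part in the late rises was not tested. Ucp1, the brown fat uncoupling protein, was high on 1 P14 array and lay -0.32 from the midpoint (adjusted p = 0.891). In whole muscle, fewer cells of a type and less RNA per cell cannot be told apart.

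**Figure D4:**
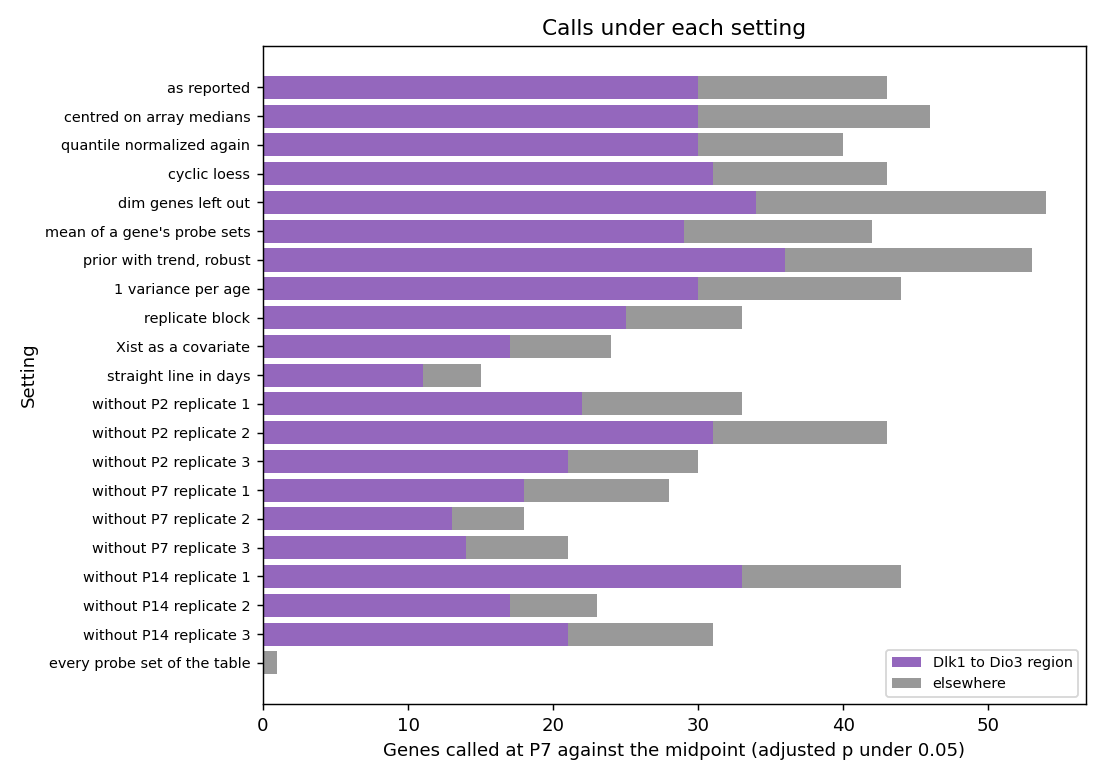
Number of genes called at P7 against the midpoint under each setting, split into the Dlk1 to Dio3 region and elsewhere. The reported fit has 43 calls, the straight line in days 15, and the fit over every probe set has 1.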

How the data were processed

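Total RNA of hindlimb muscle was hybridised to expression arrays, 3 per age. The deposited table holds log2 values that the authors made with RMA and Partek, per the submitters' processing notes; versions, settings and the array's build are not given here. Of 41345 probe sets, 23521 name 1 symbol, 1814 several and 16010 are not listed, and only the first were used, the brightest for each of 22180 genes. The contrast P7 minus the average of P2 and P14 was fitted with limma 3.58.1 in R 4.3.3 (lmFit, eBayes), with Benjamini-Hochberg adjustment over 22180 genes, two-sided. The number of arrays, 3 per age, limits the precision. Genes named are, per shape, the 5 called genes farthest from the midpoint that were brighter than the median gene, without microRNAs and clone names; the 8 largest called microRNA genes; up to 3 called members per list; peaks and dips with both sides called; a standing set of 20 muscle, clock and imprinted genes; and 3 genes for each shape without calls. Of 952 list genes, 850 were measured. The members and the 48 gene lists were chosen with earlier results of these data known. Alternatives covered the normalization, dim genes, probe set choice, prior, weights, replicate block, Xist, line in days, left-out arrays and the probe sets fitted. Lists were described with counts and medians and not tested.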

Additional observations from a re-analysis of the deposited data

How the results depend on the processing

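The count of 43 calls (35 above, 8 below) stayed within 1.5 times under centring, quantile normalization, cyclic loess, the dim-gene filter, averaged probe sets, a trended robust prior and 1 variance per age, except that 15 genes were below without dim genes. With Xist as a covariate it was 24 (20 above, 4 below), on a straight line in days 15 (12 and 3), and with every probe set of the table, a setting chosen after seeing the data, 1 (1 and 0). Leaving out 1 array gave 18 to 44 calls (16 to 37 above, 2 to 9 below), 0 to 3 peaks and 0 to 2 dips with both sides called. The 2 peaks became 1 under centring, loess, the dim-gene filter and averaged probe sets, and 0 under quantile normalization, 1 variance per age, the replicate block, Xist and every probe set; dips were 1 under quantile normalization, the dim-gene filter and 1 variance per age. Same-numbered arrays had deviation correlations of -0.0286 to 0.0565, and differently numbered ones -0.0823 to 0.106. These correlations run over all genes and cannot settle if the numbers pair samples. The replicate block gave 33 calls, 4 of them below the midpoint. On unlogged values Myh8 turned to -0.11 and the uncalled Pvalb, Myh2 and Dlk1 to -0.39, -0.41 and -0.017, 30 of the 43 called genes moved beyond their replicate SD (Sln to 0.43, Mir379 to 0.51, Atp1b4 to 0.52) and 12 did not. Other uncalled genes changed sign: Myog (-0.0084) and Pax7 (-0.10) with Xist, Mymk under quantile (0.064) and loess (0.072), and without 1 array the ranges were Ucp1 -0.516 to 0.0801, Myh3 -0.428 to 0.238, Myh7 -0.286 to 0.122, Pax7 -0.317 to 0.368, Mymk -0.151 to 0.10. The cause was not tested. Signal near the receptor level limits the falls of 5 called genes of the Dlk1 to Dio3 region.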

Other observations

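In the fit over every probe set of the table, 0 of 1814 probe sets that name several genes and 0 of 16010 that are not listed were called by limma. Among the cell type lists, the neutrophil and precursor genes had a median difference from the midpoint of 0.20, the lymphocyte genes 0.19 (3 of 13 were above the receptor level), the erythroid genes 0.15, the adipocyte genes 0.10 and the endothelial genes 0.04. Of their members, Stfa3 (1.27), Il7r (0.60), Cd3e (0.38), Car3 (0.75) and Cebpa (0.38) were above the midpoint at an unadjusted p under 0.05, Tfrc (-0.73) and Plin4 (-0.44) were below it, and none was called. The mast cell genes had a median of -0.26, with Cpa3, a mast cell protease, at -0.47. The 24 genes of amino acid supply and tRNA charging were all below the midpoint, as were 62.2% of all genes above the receptor level, with a median of -0.21, 0 called by limma and 2 at an unadjusted p under 0.05.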
